A study of Mus musculus with 56 samples.

Results

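The insulin receptor gene Insr, its adaptor genes Irs1 and Irs2, the transcription factor genes Foxo1 and Foxo3, and 4 genes known as FOXO-responsive (Depp1, Klf15, Txnip and Sesn1) were followed in the mouse kidney. These 9 genes were listed by name out of the 17027 genes of 1 expression table, with earlier results of these data known. Kidneys came from 56 female C57BL/6J mice that were 9 weeks old. All mice had been kept from 7 weeks of age on 12 h of light and 12 h of dark with free access to chow for 7 days. For 7 further days one set was fed in the daytime alone (DRF, for daytime-restricted feeding) and the other at night alone (NRF, for nighttime-restricted feeding, the reference). Poly(A) RNA was sequenced at ZT0, ZT4, ZT8, ZT12, ZT16, ZT20 and ZT24 (zeitgeber time, counted in h from lights on). Each of the 14 groups of regimen and time held 4 mice. The labels give no clock hours for the food, so ZT4 and ZT8 were taken as times with food under DRF and without food under NRF, and ZT16 and ZT20 the other way round. ZT0, ZT12 and ZT24 lie at the change of light and food.

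Insulin binds its receptor, a tyrosine kinase at the cell surface, and the activated receptor phosphorylates the IRS adaptors, which bring phosphoinositide 3-kinase and then AKT into play. AKT phosphorylates FOXO factors and keeps them out of the nucleus, so FOXO target genes are known to rise when insulin falls. In the kidney, insulin signalling is known to restrain glucose production in the proximal tubule and to act on sodium transport.

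Levels are given in TPM, a measure scaled for transcript length and library size, rebuilt from the deposited table, in which each value stands for a log-scaled read count divided by gene length. Reads of the genes used totalled 21.6 to 24.3 M per library. All 9 genes had whole reads at their annotated length. Counting error was largest for Depp1, whose lowest library held 35 reads (16.9% by counting alone), and small for Txnip, with at least 5456 reads (1.35%). Markers of the proximal tubule, collecting duct, thick limb and glomerulus were present in every library. Summed adipose markers (Adipoq, Plin1, Cidec and Lep) ranged from 0.267 to 753 TPM, and 9 libraries held over 100 TPM, with the 3 highest at NRF ZT12 and NRF ZT16. Of 5 adrenal markers, Cyp11b1 and Cyp11b2 had no usable reads. Cyp11a1 and Cyp21a1 stayed below 1 TPM in every library, while their sum with Star, the remaining marker, ran from 4.19 to 7.61 TPM. In whole-kidney RNA, fewer cells of a type and less RNA per cell cannot be told apart.

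The 9 genes differed widely in level. Txnip, whose product binds thioredoxin and limits glucose uptake, averaged 534 TPM and lay above 97.6% of the 12263 genes tested. Klf15, a Krüppel-like transcription factor known for its control of amino acid breakdown, averaged 111 TPM. Foxo3 (61.5 TPM), Insr (40.2 TPM) and Foxo1 (33.7 TPM) followed. Sesn1, a sestrin that restrains mTORC1, averaged 22.6 TPM, and Depp1, a small regulator of autophagy induced by FOXO factors, averaged 22.5 TPM. The adaptors were lower, at 12.9 TPM for Irs1 and 7.63 TPM for Irs2. Depp1 had the widest relative range of the 9 genes, from 3.56 to 71.8 TPM over single mice, and Sesn1 the narrowest, from 18.2 to 29.4 TPM.

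**Figure D1:**
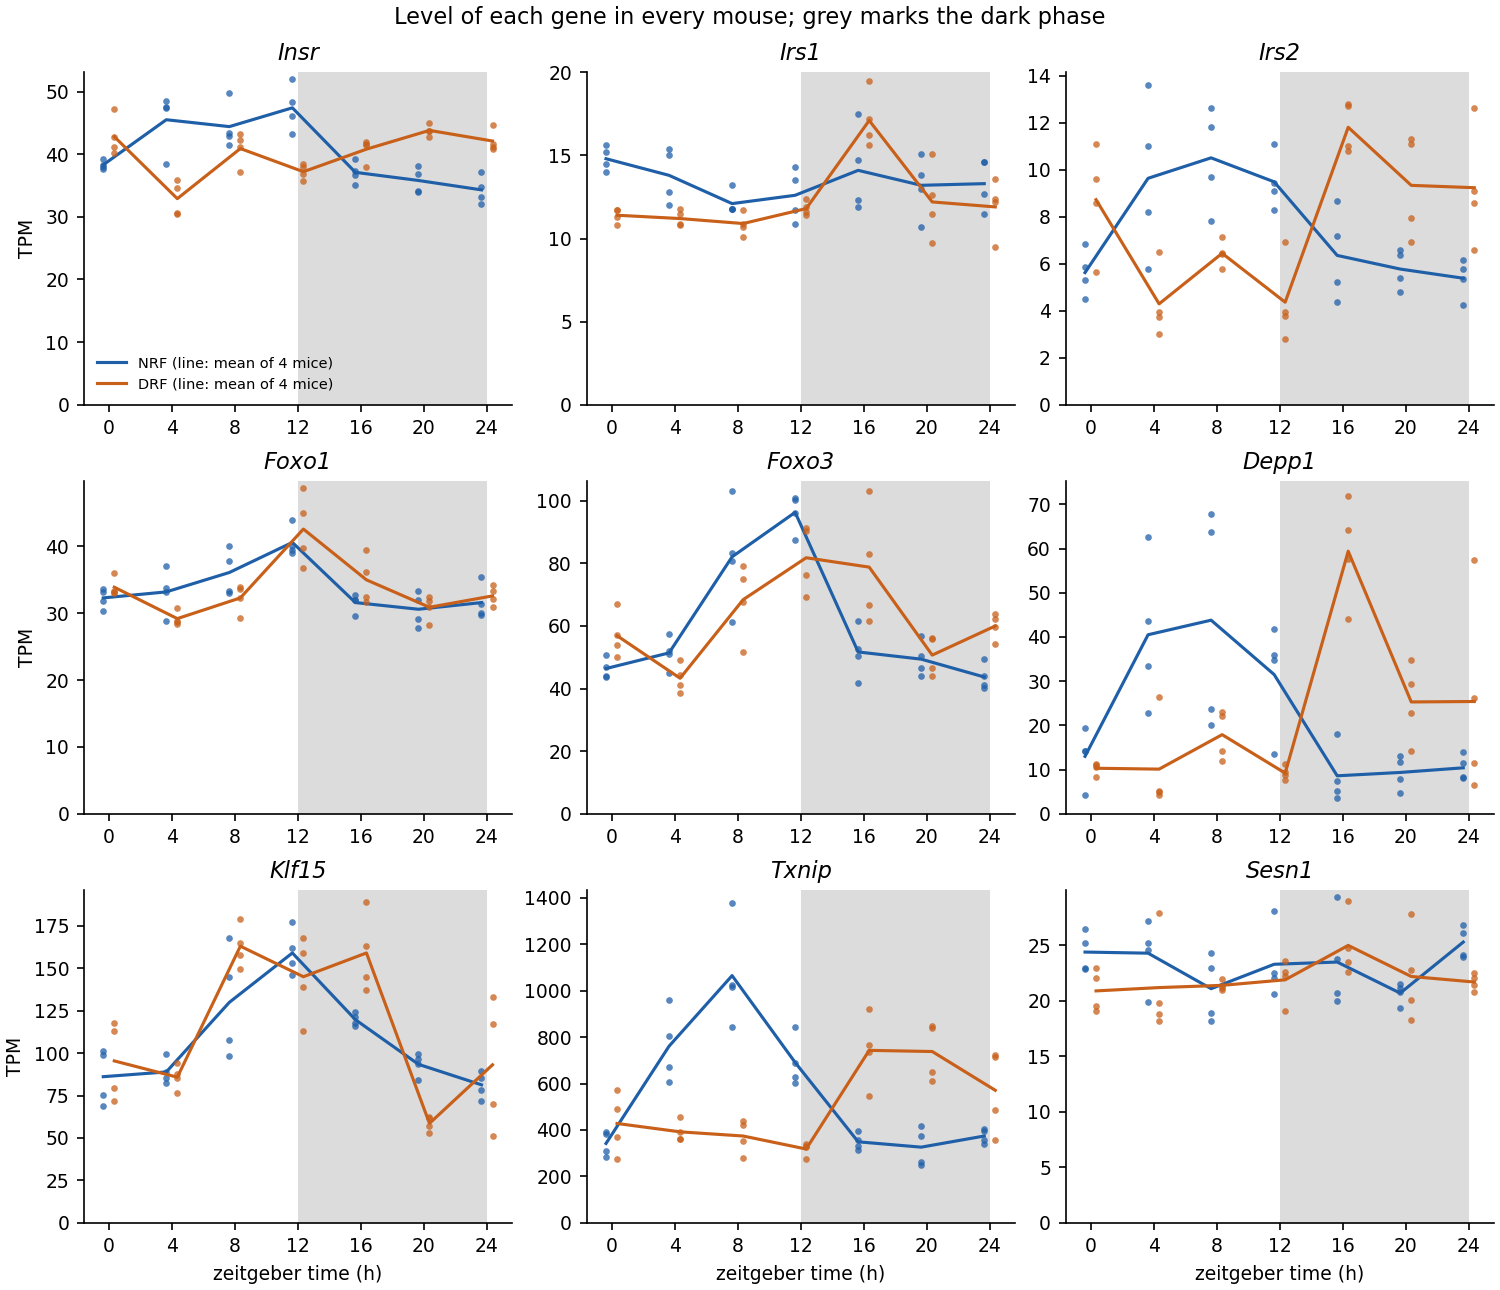
TPM of each gene (vertical axis, from 0) in every mouse (points) against zeitgeber time in h, with lines through the means of 4 mice for NRF (blue) and DRF (orange) and grey for the dark phase. Depp1, Txnip and Irs2 stood high in the light under NRF and in the dark under DRF. Insr stood high in the light under NRF, while its DRF means at ZT8 (40.9 TPM) and ZT16 (40.8 TPM) were alike. Klf15, Foxo3 and Foxo1 had their highest group mean between ZT8 and ZT16 under both regimens.

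The genes lie on 5 chromosomes of GRCm38. Insr spans chr8:3122061-3279617 and Irs2 chr8:10984681-11008458, both on the minus strand, and Irs1 spans chr1:82233101-82291416 on the minus strand. Foxo1 spans chr3:52268336-52353221 and Txnip chr3:96557957-96561883, both on the plus strand. Klf15 spans chr6:90462576-90475238 and Depp1 chr6:116650609-116652794 on the plus strand. Sesn1 spans chr10:41809935-41908424 on the plus strand and Foxo3 chr10:42181841-42276755 on the minus strand.

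Promoter sequences show which of these genes carry the letters of a FOXO site or of the E-box that clock factors bind. RefSeq promoters (GRCm38.p6, 250 bases before and 50 after the start) were at hand for 8 of the 9 genes, with 2 for Sesn1. Both strands were searched for the FOXO consensus GTAAACA and for the E-box CACGTG, which do not overlap each other in these promoters. Of 32851 promoters in the reference, 3.65% held the former and 7.15% the latter. The FOXO letters were found in Txnip, beginning 121 bases before the start, and in the first Sesn1 promoter, as TGTTTAC after the start. The E-box was found 3 times in Klf15, once in Irs1 and once in Irs2. Foxo1, Foxo3, Depp1 and the second Sesn1 promoter held neither in this window. A match is a run of letters and not a measured binding site. The promoters of Txnip and Sesn1 are printed because they share the FOXO letters and differ in their values below, Klf15 and Irs2 because they share the E-box and differ in peak time, and Depp1 because it has neither, with the matches in capitals. Txnip lies at chr3:96557707-96558006 (plus strand), Sesn1 at chr10:41810324-41810623 (plus strand), Klf15 at chr6:90462326-90462625 (plus strand), Irs2 at chr8:11008880-11009179 (minus strand) and Depp1 at chr6:116650434-116650733 (plus strand).
Txnip: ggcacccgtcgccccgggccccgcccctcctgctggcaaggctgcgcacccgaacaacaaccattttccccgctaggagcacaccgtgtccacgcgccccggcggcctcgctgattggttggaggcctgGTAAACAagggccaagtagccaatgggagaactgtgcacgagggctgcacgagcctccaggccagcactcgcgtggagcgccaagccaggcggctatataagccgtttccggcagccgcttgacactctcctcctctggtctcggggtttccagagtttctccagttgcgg
Sesn1: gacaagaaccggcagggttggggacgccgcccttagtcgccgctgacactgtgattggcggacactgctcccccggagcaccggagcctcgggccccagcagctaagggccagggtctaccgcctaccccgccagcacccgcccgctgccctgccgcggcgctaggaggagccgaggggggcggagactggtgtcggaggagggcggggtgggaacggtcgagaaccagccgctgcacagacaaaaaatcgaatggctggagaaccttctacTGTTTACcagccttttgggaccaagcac
Klf15: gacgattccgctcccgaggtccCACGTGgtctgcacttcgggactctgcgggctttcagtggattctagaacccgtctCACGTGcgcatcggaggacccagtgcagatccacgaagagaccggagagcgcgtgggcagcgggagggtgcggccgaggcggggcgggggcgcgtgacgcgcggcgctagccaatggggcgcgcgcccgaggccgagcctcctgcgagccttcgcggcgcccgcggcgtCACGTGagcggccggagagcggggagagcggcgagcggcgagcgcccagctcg
Irs2: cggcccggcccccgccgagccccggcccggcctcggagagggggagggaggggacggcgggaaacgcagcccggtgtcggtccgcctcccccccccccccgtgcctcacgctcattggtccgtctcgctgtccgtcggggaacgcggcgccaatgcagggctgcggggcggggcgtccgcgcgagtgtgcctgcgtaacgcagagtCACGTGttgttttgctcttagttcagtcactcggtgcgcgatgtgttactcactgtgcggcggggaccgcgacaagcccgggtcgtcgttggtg
Depp1: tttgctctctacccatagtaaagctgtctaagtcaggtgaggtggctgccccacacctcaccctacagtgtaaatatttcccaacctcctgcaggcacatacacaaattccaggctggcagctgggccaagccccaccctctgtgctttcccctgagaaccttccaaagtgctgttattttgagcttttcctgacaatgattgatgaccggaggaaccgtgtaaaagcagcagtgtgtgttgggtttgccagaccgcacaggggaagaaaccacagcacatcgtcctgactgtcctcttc

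To set food apart from light and clock time, the 4 groups sampled without food were compared with the 4 groups sampled with food, with light balanced. The dark groups were likewise compared with the light groups, with food balanced. Of the 9 members, 7 stood higher without food and none lower, while only Irs1 passed for dark against light. The light comparison sets ZT16 and ZT20 against ZT4 and ZT8 in both regimens, so light and clock time cannot be told apart in it. A gene that peaks near ZT0 or ZT12 can miss this comparison. In the single pairs of times given below, Foxo3 and Klf15 passed for light in opposite directions. The largest differences without food were those of Depp1 (3.68-fold), Txnip (2.26-fold) and Irs2 (1.69-fold). Foxo3 (1.21-fold), Insr (1.19-fold), Irs1 (1.11-fold) and Foxo1 (1.09-fold) also rose. Klf15 and Sesn1 did not pass the test. Within single regimens, Insr, Irs2, Depp1 and Txnip passed under both, Foxo1 and Foxo3 under NRF alone and Irs1 under DRF alone. Over all genes tested, 37.2% passed in either direction and 20.8% were higher without food, and 34.7% passed for light. The median difference without food was 0.25 over the 9 members and 0.02 over all genes, on the log2(TPM + 1) scale. That scale, on which all differences and folds from the fits are given, understates the change of genes at a few TPM, such as Irs2. Groups were compared with limma and p-values were adjusted by Benjamini-Hochberg over all genes tested.

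**Figure D2:**
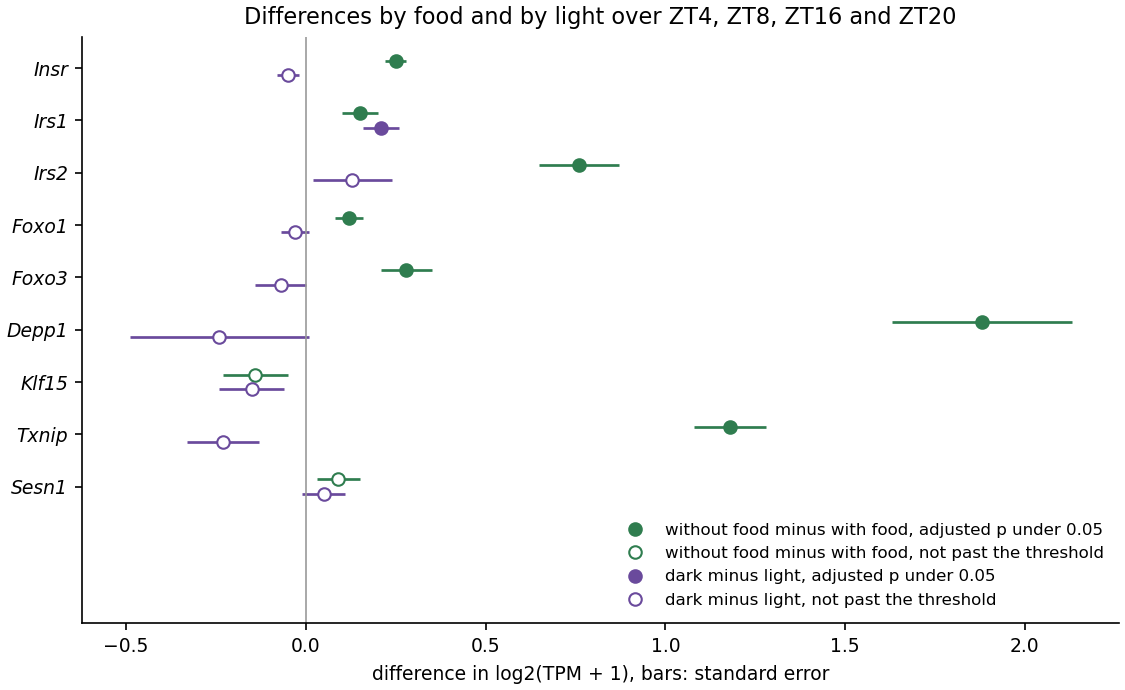
Difference in log2(TPM + 1) of each gene (horizontal axis) without food minus with food (green) and in the dark minus in the light (purple), over ZT4, ZT8, ZT16 and ZT20 of both regimens, with standard errors as bars and filled points for an adjusted p under 0.05. Depp1 (1.88), Txnip (1.18) and Irs2 (0.76) lie far to the right for food, and Irs1 (0.21) has the one filled point for light.

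Insr encodes the receptor itself. Under NRF it ranged over 38.4 to 49.8 TPM in the 8 mice without food and 34 to 39.3 TPM in the 8 mice with food. Under DRF it ranged over 37.9 to 45.0 TPM in the 8 mice without food and 30.4 to 43.3 TPM in the 8 mice with food. The ranges overlapped in both regimens, and 7 of 8 NRF mice but 3 of 8 DRF mice without food lay above all 8 with food. Insr was 0.25 ± 0.03 higher without food (standard error, adjusted p = 4e-08) and differed by -0.05 ± 0.03 between dark and light (adjusted p = 0.29). The NRF profile was flat and high from ZT4 to ZT12, with 47.4, 38.4, 48.5 and 47.5 TPM at ZT4, 41.5, 43.4, 42.9 and 49.8 TPM at ZT8 and 52.0, 48.3, 46.1 and 43.3 TPM at ZT12. Mouse 2 at ZT4 was the low one, at 38.4 TPM. Under DRF the lowest values of the day came at ZT4, with 30.6, 30.4, 34.6 and 35.9 TPM, and the highest group in the dark was ZT20, with 43.7, 42.7, 45.0 and 43.7 TPM.

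Irs2, the adaptor known to change strongly with fasting in liver, moved further than its receptor. At NRF ZT4 it stood at 8.19, 5.77, 13.6 and 11 TPM and at NRF ZT8 at 9.67, 12.6, 7.81 and 11.8 TPM. With food at NRF ZT16 it stood at 4.37, 7.16, 8.65 and 5.22 TPM and at NRF ZT20 at 4.80, 6.56, 6.36 and 5.37 TPM. The groups overlapped, with 5 of 8 mice without food above all 8 with food. Under DRF the order was turned, with 12.7, 11, 12.8 and 10.8 TPM at ZT16 and 6.94, 7.95, 11.1 and 11.3 TPM at ZT20 without food. With food, DRF ZT4 held 3.75, 2.99, 3.94 and 6.49 TPM and DRF ZT8 held 6.46, 5.77, 6.42 and 7.12 TPM. Of the 8 DRF mice without food, 7 lay above all 8 with food, and the other, at ZT20, stood at 6.94 TPM. The difference without food was 0.76 ± 0.11 (adjusted p = 1.9e-07) and that for light was 0.13 ± 0.11 (adjusted p = 0.38).

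Irs1, the other main adaptor, did not follow Irs2. Under NRF it ranged over 11.8 to 15.4 TPM in the 8 mice without food and 10.7 to 17.5 TPM in the 8 mice with food. Under DRF it stood out at 1 time, ZT16, with 19.5, 17.2, 16.2 and 15.6 TPM. At DRF ZT12 it was at 11.9, 12.4, 11.6 and 11.4 TPM and at DRF ZT20 at 11.5, 9.73, 12.6 and 15.1 TPM, so the 4 mice at ZT16 lay above those of both neighbouring times. Without food it was -0.06 ± 0.07 different under NRF and 0.35 ± 0.07 under DRF. The test of the difference between these 2 responses is that of the light effect, which was 0.21 ± 0.05 (adjusted p = 0.0018) and missed the threshold with ZT8 and ZT20 alone (0.12, adjusted p = 0.26). The food effect over both regimens, 0.15 ± 0.05 (adjusted p = 0.024), missed the threshold without mice numbered 1, 3 or 4, without the 9 libraries high in adipose markers (adjusted p = 0.052) and with ZT8 and ZT20 alone (0.02).

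Foxo1 and Foxo3, which encode the transcription factors that AKT restrains, were both higher without food over the regimens together. Foxo1 differed by 0.12 ± 0.04 (adjusted p = 0.0092) and Foxo3 by 0.28 ± 0.07 (adjusted p = 0.00094). Under NRF alone both passed, at 0.15 ± 0.05 (adjusted p = 0.021) and 0.35 ± 0.09 (adjusted p = 0.0023). Under DRF alone neither did, at 0.09 ± 0.05 (adjusted p = 0.2) and 0.20 ± 0.09 (adjusted p = 0.11). The difference between these responses, tested as the light effect, did not pass (adjusted p = 0.61 and 0.42). For Foxo3 the difference was 0.41 ± 0.09 with ZT4 and ZT16 alone and 0.14 ± 0.09 with ZT8 and ZT20 alone, where it missed the threshold (adjusted p = 0.26). Foxo1 missed it in the same pair (adjusted p = 0.23), without mice numbered 3 or 4, and on the deposited values. With ZT4 and ZT16 alone, 7 members passed for food against 22.9% of all genes, and with ZT8 and ZT20 alone 5 passed against 30.1%, with Klf15 lower and the other 4 (Insr, Irs2, Depp1 and Txnip) higher.

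Averaged over the 4 times, neither Foxo3 nor Klf15 passed for light, but the 2 pairs of times went opposite ways. With ZT4 and ZT16 alone, Foxo3 was 0.41 ± 0.09 (adjusted p = 0.0006) and Klf15 0.65 ± 0.13 (adjusted p = 6.3e-05) higher in the dark. With ZT8 and ZT20 alone, Foxo3 was -0.56 ± 0.09 (adjusted p = 1.4e-05) and Klf15 -0.95 ± 0.13 (adjusted p = 1.3e-07) in the dark minus the light. In the group means of each regimen, both genes stood higher at ZT8 and ZT16 than at ZT4 and ZT20. For light, 4 members passed with ZT4 and ZT16 alone (Irs1, Irs2, Foxo3 and Klf15, all higher), against 33.4% of all genes. The members that passed with ZT8 and ZT20 alone were 3 (Foxo1, Foxo3 and Klf15, all lower), against 22.9%.

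Depp1 had the largest difference without food of the 9 genes. At NRF ZT4 its values were 22.7, 33.4, 62.6 and 43.5 TPM and at NRF ZT8 they were 63.8, 67.9, 20.1 and 23.6 TPM. With food at NRF ZT16 they were 3.56, 18.1, 7.49 and 5.18 TPM and at NRF ZT20 4.66, 13, 11.8 and 7.97 TPM. The lowest mouse without food, at 20.1 TPM, lay above the highest with food, at 18.1 TPM. Under DRF the gene reached 64.3, 57.7, 44.0 and 71.8 TPM at ZT16 and 14.3, 22.9, 29.3 and 34.8 TPM at ZT20. With food it held 4.22, 4.85, 5.10 and 26.4 TPM at DRF ZT4 and 22.2, 12.0, 23.1 and 14.2 TPM at DRF ZT8. The 4 mice at DRF ZT16 and 2 of those at ZT20 lay above all 8 DRF mice with food, and the other two at ZT20 (14.3 and 22.9 TPM) lay within their range. Mouse 4 at DRF ZT4, at 26.4 TPM, also had the highest sum of medulla and collecting duct markers in the study (2401 TPM), and the part of that in its value was not tested. The difference without food was 1.88 ± 0.25 (adjusted p = 4.9e-08), and that for light -0.24 ± 0.25 (adjusted p = 0.48).

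Txnip separated the groups fully under both regimens. Without food at NRF ZT4 and ZT8 it stood at 671, 607, 960.3 and 805 TPM and at 1015, 1026, 843 and 1376 TPM. With food at NRF ZT16 and ZT20 it stood at 314, 357, 329 and 397 TPM and at 251, 418, 374 and 260.5 TPM. Every NRF mouse without food was thus above every NRF mouse with food. Without food under DRF it stood at 767, 738, 919.9 and 548 TPM at ZT16 and 849.5, 612, 840.1 and 649 TPM at ZT20. With food it stood at 391, 361, 362 and 455 TPM at DRF ZT4 and 281, 354, 439 and 421 TPM at DRF ZT8. Again no mouse with food reached the lowest mouse without. The difference was 1.18 ± 0.10 (adjusted p = 6.9e-13). The value in the dark minus the light, -0.23 ± 0.10, had an adjusted p of 0.063, and the response without food was 1.41 under NRF and 0.94 under DRF.

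Klf15 went another way. Under NRF it ranged over 82.4 to 168 TPM in the 8 mice without food and 84.4 to 124 TPM in the 8 mice with food, and the medians were 98.8 and 108 TPM. Under DRF the mice without food split by time, with 189, 145, 163 and 137 TPM at ZT16 and 61.5, 57.3, 52.9 and 62.6 TPM at ZT20, which did not overlap. With food, DRF ZT8 held 179, 165, 149.7 and 158 TPM and DRF ZT4 held 87.9, 85.2, 93.9 and 76.2 TPM. Over all groups the difference without food was -0.14 ± 0.09 (adjusted p = 0.2), and with ZT8 and ZT20 alone it was -0.51 ± 0.13 (adjusted p = 0.0017). Medulla and collecting duct markers were summed at 1801 to 2021 TPM in the DRF ZT8 mice, against group medians of 859 to 1637 TPM elsewhere, and their part in the values at ZT8 was not tested.

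Sesn1 did not pass for food or light. Under NRF it ranged over 18.2 to 27.2 TPM in the 8 mice without food and 19.4 to 29.4 TPM in the 8 mice with food. Under DRF it ranged over 18.3 to 29.0 TPM in the 8 mice without food and 18.2 to 27.9 TPM in the 8 mice with food. The food difference was 0.09 ± 0.06 (adjusted p = 0.24) and the light difference 0.05 ± 0.06 (adjusted p = 0.5).

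To examine rhythms, a 24-h cosine was fitted in each regimen on its 28 mice, in which the amplitude is the height of the fitted peak above the mean and the phase is its time. Under NRF 7 of 9 members were rhythmic, all but Irs1 and Sesn1, and under DRF 8 of 9, all but Sesn1. Of all genes, 52.9% were rhythmic under NRF and 36.4% under DRF. The median amplitude over the 9 members was 0.44 under NRF and 0.32 under DRF, against 0.13 and 0.11 over all genes. Under NRF the amplitudes of those called ran from 0.15 ± 0.03 for Foxo1 to 1.31 ± 0.19 for Depp1. Under DRF they ran from 0.12 ± 0.04 for Insr (adjusted p = 0.028) to 0.97 ± 0.25 for Depp1 (adjusted p = 0.011). Without the mice numbered 3, 5 members were rhythmic under DRF, since Insr, Foxo1 and Depp1 missed the threshold. The DRF call of Insr was also lost without the mice numbered 1 or 2, without the libraries high in adipose markers (adjusted p = 0.076), on the deposited values (0.091) and without the ZT0 (0.057) or ZT24 samples (0.066). That of Foxo1 was also lost without the mice numbered 1 (0.1) or 4 (0.051), and that of Depp1 without those numbered 2 (0.058).

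The fitted peaks of Insr, Irs2, Depp1 and Txnip lay in the light under NRF and in the dark under DRF, and those of Foxo1, Foxo3 and Klf15 lay nearer to each other. Txnip peaked at ZT 7.9 ± 0.3 h under NRF and ZT 19.1 ± 0.6 h under DRF, a shift of 11.2 ± 0.7 h. Insr peaked at ZT 8.6 ± 0.6 h and ZT 19.4 ± 1.0 h, a shift of 10.8 ± 1.2 h. The receptor and its adaptor Irs2 had nearly the same peak times, with Irs2 at ZT 8.6 ± 0.6 h and ZT 19.4 ± 0.7 h. Depp1 peaked somewhat earlier in both regimens, at ZT 7.4 ± 0.5 h and ZT 17.1 ± 0.9 h, and shifted by 9.7 ± 1.0 h. Foxo1 and Foxo3 peaked late in the light under NRF, at ZT 9.7 ± 0.8 h and ZT 10.4 ± 0.5 h, and early in the dark under DRF, at ZT 13.5 ± 1.2 h and ZT 13.4 ± 0.9 h. Klf15 peaked near the change from light to dark, at ZT 12.0 ± 0.5 h under NRF and ZT 10.8 ± 0.8 h under DRF, which differed by 1.1 ± 0.9 h. Irs1 had a called rhythm under DRF, with its peak at ZT 16.6 ± 0.8 h. The median absolute shift of the 3029 genes rhythmic under both regimens was 6.1 h, and 33.4% shifted by at most 4 h and 34.4% by at least 8 h.

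**Figure D3:**
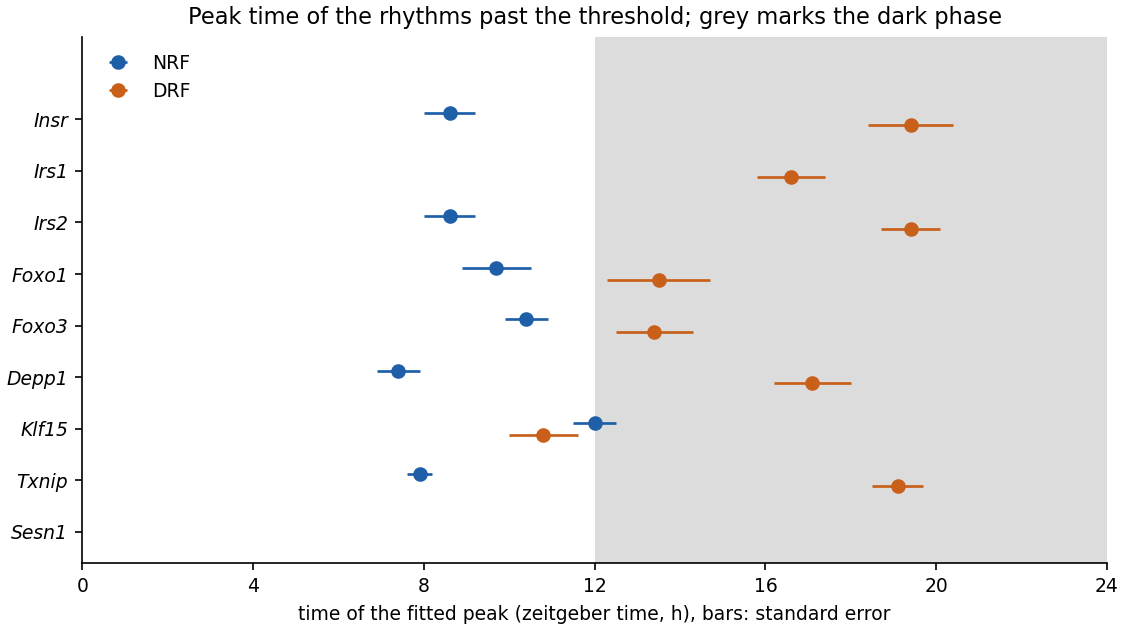
Time of the fitted 24-h peak (horizontal axis, zeitgeber time in h) with its standard error, under NRF (blue) and DRF (orange), for each rhythm with an adjusted p under 0.05; grey marks the dark phase. Insr, Irs2, Depp1 and Txnip moved by 9.7 to 11.2 h, whereas Klf15, Foxo3 and Foxo1 moved by 1.1 to 3.8 h, and Sesn1 has no point.

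The difference in rhythm between regimens was tested as an interaction. It passed for 6 of 9 members, against 46.4% of all genes. The smallest adjusted p was that of Txnip (2.6e-12), followed by Irs2 (5e-07), Insr (8.9e-07), Depp1 (1.9e-06), Foxo3 (0.0083) and Irs1 (0.015). It did not pass for Foxo1 (0.1), Sesn1 (0.15) or Klf15 (0.42). With a test of 6 clock times in place of a cosine, Klf15 (adjusted p = 0.0025) and Foxo1 (adjusted p = 0.034) passed too, so their profiles were not shown to be alike. The calls of Foxo3 and Irs1 each missed the threshold when mice of some numbers were left out.

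Some profiles had a second daily component. A 12-h component added to the cosine passed under NRF in 0 of 9 members by limma, against 0.832% of all genes. At an unadjusted p under 0.05 it passed in 3 of 9 (Foxo1, Foxo3 and Sesn1), against 12.3% of all genes. Under DRF it passed in 4, against 30.8% of all genes. These were Foxo1 (12-h amplitude 0.16, adjusted p = 0.00026), Insr (0.12, adjusted p = 0.0093), Irs1 (0.16, adjusted p = 0.018) and Txnip (0.28, adjusted p = 0.039). The 24-h amplitudes of Foxo1 (0.14) and Insr (0.12) under DRF were no larger than these. The DRF peak times and shifts given above for Foxo1 and Insr thus describe only part of their profiles. For Insr, the group means under DRF went from 32.9 TPM at ZT4 to 40.9 at ZT8, 37.2 at ZT12 and 43.8 TPM at ZT20. For Foxo1, the DRF mice reached 39.7, 45.0, 36.7 and 48.7 TPM at ZT12, above all mice at ZT8, at 29.3 to 33.9 TPM. The count was 2 without the mice numbered 3, when Irs1 and Txnip missed the threshold, and 2 without those numbered 4, when Insr and Txnip did. The call of Insr was also lost under median-of-ratios scaling (0.08, adjusted p = 0.14), on the deposited values (0.09, adjusted p = 0.24) and without the mice numbered 1. That of Irs1 was lost without the mice numbered 1 or 2 as well, and that of Txnip without the libraries high in adipose markers (adjusted p = 0.075).

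Set against NRF at the same time, the members called from ZT4 to ZT12 were lower under DRF. Irs1 alone was called at ZT0, also lower, while the median difference over the 9 members there was 0.13. From ZT16 to ZT24 all members called but Klf15 were higher. At ZT4, 5 members were lower under DRF, against 30.7% of all genes called. Depp1 differed by -2.21 ± 0.49 (adjusted p = 0.00059), Irs2 by -0.99 ± 0.21 (adjusted p = 0.00035), Txnip by -0.94 ± 0.20 (adjusted p = 0.00031) and Insr by -0.45 ± 0.06 (adjusted p = 4.6e-07). Irs1, the fifth, had an adjusted p of 0.047 and missed the threshold on the deposited values (0.082), under median-of-ratios scaling (0.11), with no filter on low values (0.056), without the libraries high in adipose markers (0.099) and without the mice numbered 2, 3 or 4. At ZT8, Txnip (-1.51 ± 0.20, adjusted p = 3.4e-07) and Irs2 (-0.61 ± 0.21, adjusted p = 0.041) were lower, against 17.0% of genes called. The call of Irs2 at ZT8 was lost without the mice numbered 1, 2 or 4 (adjusted p of 0.11 to 0.22). At ZT12, Insr, Irs2, Depp1 and Txnip were lower, against 21.2%. Depp1 there was at 8.68, 11.2, 9.34 and 7.55 TPM under DRF and 41.7, 35.9, 34.9 and 13.5 TPM under NRF, without overlap, with a difference of -1.57 ± 0.49 (adjusted p = 0.018). The call was lost without the libraries high in adipose markers (-1.32, adjusted p = 0.11) and without the mice numbered 1 (-1.38) or 3 (-1.50), with fewer mice in each of these fits.

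At ZT16, Depp1 (2.86 ± 0.49, 7.24-fold, adjusted p = 0.00016), Txnip (1.07 ± 0.20, adjusted p = 0.0004), Irs2 (0.84 ± 0.21, adjusted p = 0.0088) and Foxo3 (0.58 ± 0.13, adjusted p = 0.0042) were higher under DRF, against 8.70% of genes called. Foxo3 held 103, 66.8, 83.0 and 61.7 TPM there under DRF and 41.9, 61.6, 52.8 and 50.5 TPM under NRF. These groups did not overlap, by 61.7 against 61.6 TPM. The call of Irs2 at ZT16 was lost without the libraries high in adipose markers (0.72, adjusted p = 0.11), of which 2 belong to NRF ZT16, and without the mice numbered 1 (0.67, 0.084) or 4 (0.81, 0.05). That of Foxo3 was lost without the mice numbered 1 (0.35, adjusted p = 0.13). At ZT20, Txnip (1.20 ± 0.20, adjusted p = 2e-05), Insr (0.28 ± 0.06, adjusted p = 0.0012), Irs2 (0.59 ± 0.21, adjusted p = 0.043) and Depp1 (1.36 ± 0.49, adjusted p = 0.046) were higher, against 18.9% of genes called. Klf15 was lower at ZT20 (-0.66 ± 0.18, adjusted p = 0.0059), with 93.3, 96.6, 99.5 and 84.4 TPM under NRF, all above the 4 DRF mice. Of these 5 calls at ZT20, 2 were left without the libraries high in adipose markers, 1 without the mice numbered 3, and 2 on the deposited values. Without the libraries high in adipose markers the differences of the 3 lost genes were 1.64 ± 0.63 for Depp1, 0.69 ± 0.28 for Irs2 and -0.73 ± 0.25 for Klf15, each further from 0 and with a larger standard error than with all mice.

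At the end of the dark, at ZT24, Insr (0.29 ± 0.06, adjusted p = 0.0011), Irs2 (0.66 ± 0.21, adjusted p = 0.026) and Foxo3 (0.45 ± 0.13, adjusted p = 0.016) were higher under DRF, against 15.9% of genes called. Leaving out the mice of 1 number left 1 to 3 of these calls. Insr was at 44.7, 41.1, 40.9 and 41.6 TPM under DRF and 32.1, 33.2, 34.8 and 37.1 TPM under NRF, without overlap. At ZT0, the same clock time, only Irs1 passed, with 10.8, 11.7, 11.7 and 11.3 TPM under DRF and 15.2, 14, 14.5 and 15.6 TPM under NRF (-0.36 ± 0.11, adjusted p = 0.013), against 20.1% of genes called. Insr (0.16), Irs2 (0.53) and Foxo3 (0.28) had positive values at ZT0 that missed the threshold, and all 3 passed it under median-of-ratios scaling. At DRF ZT24 the mice differed among themselves: mice 1 and 2 were higher than mice 3 and 4 in Depp1 (26.3, 57.5, 11.4 and 6.43 TPM), in Klf15 (117, 133, 70.2 and 51.4 TPM) and in Txnip (723, 715, 487 and 357 TPM). These time-point differences use the same libraries as the food and light comparisons.

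Averaged over the day, the regimens differed in 0 of 9 members by limma, against 12.4% of all genes. At an unadjusted p under 0.05 they differed in 1 of 9 (Irs1), against 26.8% of all genes. The differences in daily mean, DRF minus NRF, ran from -0.15 ± 0.08 for Txnip to 0.04 ± 0.05 for Foxo3. Samples taken at the same clock time, ZT24 minus ZT0, differed in 0 of 9 members under NRF, against 0.603% of all genes. Unadjusted, 1 of 9 (Insr) passed there, against 7.99% of all genes. Under DRF they differed in 0 of 9, against 0% of all genes. Unadjusted, 1 of 9 (Txnip) passed there, against 4.07%. The widest of these was Depp1 under DRF, at 0.81 ± 0.49 (adjusted p = 1).

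The order of the 14 group means shows where each gene was extreme. Depp1 went from 8.59 TPM at NRF ZT16 to 59.4 TPM at DRF ZT16, a ratio of 6.92, so that the same clock time held both ends. Txnip went from 318 TPM at DRF ZT12 to 1065 TPM at NRF ZT8, a ratio of 3.35. Klf15 (58.6 TPM at DRF ZT20 to 163 TPM at DRF ZT8) and Irs2 (4.29 TPM at DRF ZT4 to 11.8 TPM at DRF ZT16) had ratios of 2.78 and 2.76. Foxo3 went from 43.3 TPM at DRF ZT4 to 96.3 TPM at NRF ZT12. Irs1, Foxo1 and Insr had ratios of 1.58, 1.46 and 1.44, and Sesn1 of 1.22. Of the 13 pairs of neighbours in each order, all overlapped in their single mice for 8 genes, and 12 did for Klf15, where DRF ZT20 stood below NRF ZT24.

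Set side by side by time since lights changed, the times without food differed in profile between regimens. For Txnip, the means at the ends of 4, 8 and 12 h were 761 ± 157, 1065 ± 224 and 691 ± 108 TPM under NRF (SD, n = 4) and 743 ± 153, 738 ± 125 and 571 ± 179 TPM under DRF. For Depp1 they were 40.5 ± 17.0, 43.8 ± 25.5 and 31.5 ± 12.4 TPM under NRF and 59.4 ± 11.8, 25.3 ± 8.80 and 25.4 ± 23.0 TPM under DRF. Txnip was highest in the middle under NRF, and Depp1 at the first time under DRF. The last DRF value is that of ZT24, and at ZT0, the same clock time, DRF mice held 10.3 ± 1.40 TPM of Depp1 and 428 ± 131 TPM of Txnip. For Irs2 the means at the ends of these spans were 9.63 ± 3.39, 10.5 ± 2.15 and 9.48 ± 1.19 TPM under NRF and 11.8 ± 1.05, 9.33 ± 2.22 and 9.23 ± 2.51 TPM under DRF. These values are a description, and the difference in shape was not tested apart from light.

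The other genes of the pathway were taken from 2 lists. Of 28 genes from the insulin receptor to mTORC, 25 were tested. For food, 4 were higher without it, 3 were lower and 18 did not pass. The share called was 28%, against 37.2% of all genes, and the median difference was -0.01. The higher ones were Igf1r, the receptor for insulin-like growth factors (0.50 ± 0.05, adjusted p = 2.2e-10), Rictor, Phlpp1 and Tsc1. The lower ones were Akt1, Grb10, an adaptor that restrains the receptor (-0.11 ± 0.04, adjusted p = 0.016), and Ptpn1, a phosphatase that switches the receptor off (-0.09 ± 0.03, adjusted p = 0.028). For light, 8 were higher in the dark, 3 were lower and 14 did not pass (44% called, against 34.7% of all genes). The lower ones included Pik3r2 (-0.21 ± 0.03, adjusted p = 3e-06), a regulatory subunit of phosphoinositide 3-kinase, and Grb14 (-0.19 ± 0.04, adjusted p = 9.4e-05), another adaptor that restrains the receptor. The genes of this list without whole reads were not tested.

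Of 23 further FOXO factors and genes known as FOXO-responsive, 22 were tested (Foxo6 was too low), and 12 were higher without food, 1 was lower and 9 did not pass. The share called was 59.1% against the 37.2% of all genes given above, and the median difference was 0.15. Pdk4, the kinase that shuts down pyruvate dehydrogenase, had the largest difference (2.62 ± 0.17, adjusted p = 1.9e-16). Igfbp1, which binds insulin-like growth factors, differed by 1.04 ± 0.11 (adjusted p = 2.6e-10), and Gabarapl1, an autophagosome protein, by 0.67 ± 0.05 (adjusted p = 9.8e-16). For Igfbp1 the regimens differed. Under NRF its means were 104 and 84.4 TPM without food (ZT4 and ZT8) and 24.1 and 26.2 TPM with food (ZT16 and ZT20). Under DRF its means were 87.3 and 39.6 TPM without food (ZT16 and ZT20) and 30.1 and 84.0 TPM with food (ZT4 and ZT8). Trim63, a ubiquitin ligase of muscle, was the lower one (-0.27 ± 0.08, adjusted p = 0.0086). Over both regimens the gluconeogenic genes of the list did not pass for food, with 0.03 ± 0.11 for Pck1 and -0.09 ± 0.10 for G6pc. The group means of G6pc differed by regimen. Under NRF they were 783 and 726 TPM without food (ZT4 and ZT8) and 1469 and 1621 TPM with food (ZT16 and ZT20). Under DRF they were 2731 and 802 TPM without food (ZT16 and ZT20) and 909 and 698 TPM with food (ZT4 and ZT8).

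For light, 4 genes of that list were higher in the dark, 2 were lower and 16 did not pass (27.3% called, against 34.7% of all genes). Pdk4 (1.0 ± 0.17, adjusted p = 5.7e-06), G6pc, the last enzyme of glucose production (0.98 ± 0.10, adjusted p = 1.5e-10), and Sesn2, a sestrin like Sesn1 (0.37 ± 0.06, adjusted p = 4.7e-06), were the largest. Igfbp1 was lower in the dark (-0.82 ± 0.11, adjusted p = 7e-08). As for Irs1, the light test of each gene is also that of the difference between the regimens in the response without food. Pdk4 peaked above the other groups at DRF ZT20, at 265 to 504 TPM against 83.5 to 159.5 TPM at NRF ZT8. G6pc reached 2406 to 3123 TPM at DRF ZT16 against 1213 to 1562 TPM at NRF ZT16, where the groups did not overlap. The rhythm differed between the regimens in 16 of the 22 genes of this list and in 7 of the 25 from the receptor to mTORC. The share of the former list lay above the 46.4% of all genes called for this difference, and that of the latter below it.

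**Figure D4:**
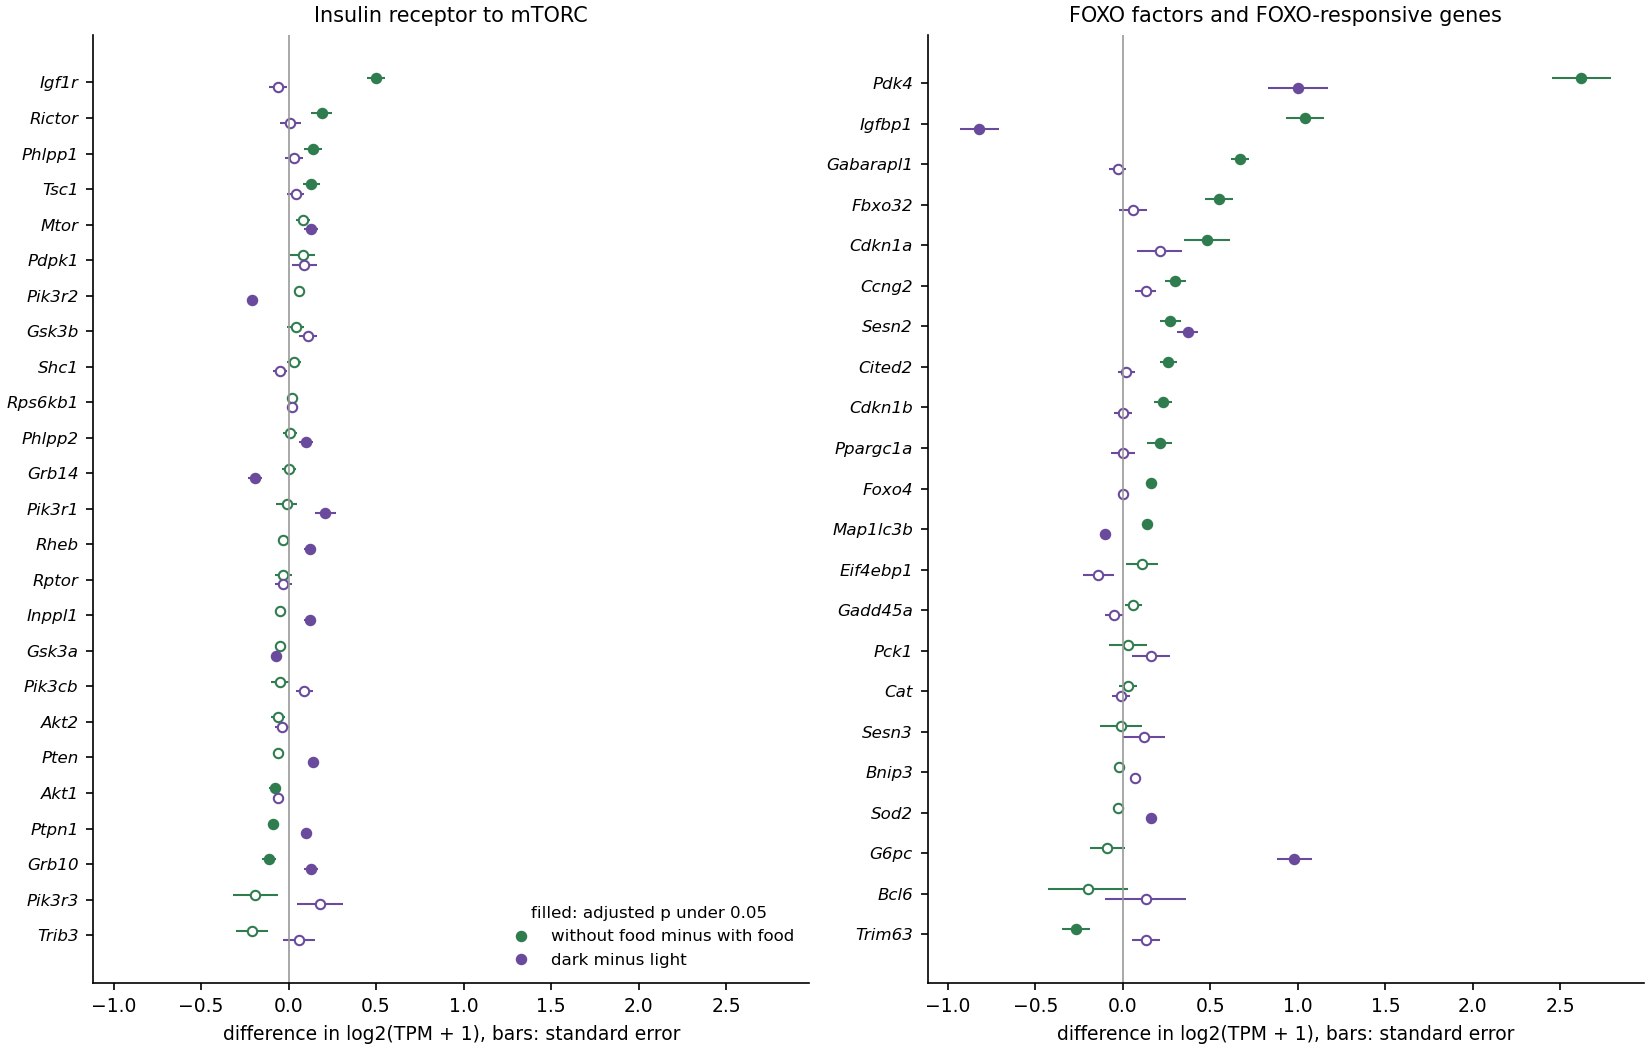
Differences in log2(TPM + 1) with standard errors (horizontal axis) for each tested gene from the insulin receptor to mTORC (left) and of the further FOXO list (right), without food minus with food (green) and dark minus light (purple), filled for an adjusted p under 0.05. Pdk4 (2.62), Igfbp1 (1.04) and Gabarapl1 (0.67) lie furthest right for food, and G6pc (0.98) is filled for light and open for food.

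The 9 members did not move as one. Across the 14 group means, Pearson's r of log2(TPM + 1) was 0.89 between Depp1 and Txnip, 0.86 between Irs2 and Depp1, 0.85 between Irs2 and Txnip and 0.83 between Insr and Irs2. It was 0.86 between Foxo1 and Foxo3, 0.80 between Foxo3 and Klf15 and 0.78 between Irs1 and Sesn1. Between Klf15 and Txnip it was 0.05, and between Insr and Irs1 it was -0.03. The group means share libraries and are no independent replicates, so these values are a description.

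The genes whose profile over the group means was most like that of a member were sought by the same r among all genes tested. For Insr they were Ulk1 (r = 0.948), a kinase that starts autophagy, Rbm33 (0.944) and Mbd5 (0.944). For Irs2 they were Atg13 (0.950), a subunit of the autophagy-starting kinase complex, Ctdsp2 (0.942) and Fam110c (0.937). For Depp1 they were Txnip (0.893), Igfbp1 (0.871) and Tec (0.869). For Txnip they were the Krüppel-like factor genes Klf11 (0.947) and Klf10 (0.907) and the bicarbonate transporter gene Slc4a5 (0.900). Klf15 was nearest to Inpp5b (0.920), Map2k6 (0.914) and Tnfrsf21 (0.903), and Foxo3 to Tnfrsf21 (0.934), Etnk2 (0.920) and Pim3 (0.920). Foxo1 was nearest to Lrig1 (0.910), Pim3 (0.880) and Edc3 (0.867). Irs1 was nearest to 2900026A02Rik (0.931), Eps8 (0.930) and Cenpq (0.924), and Sesn1 to Dapp1 (0.838), Agfg2 (0.811) and Irs1 (0.778).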

How the data were processed

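Poly(A) RNA of 56 kidneys was sequenced with paired ends on a BGISEQ-500, and HISAT2, Bowtie2, RSEM, mm10 and GRCm38.p6 are named in the submitters' processing notes without roles. The authors deposited 1 table of 17027 genes that they named TPM, but whose values are a score: log2(CPM + 1) divided by gene length, scaled to nearly 1 sum per sample. Design tables had assumed TPM. One NRF ZT24 column has a number that no label gives, so it is the mouse with no number.

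Whole reads were recovered from each sample's scale factors and exon lengths of GENCODE M21 (GRCm38), or a searched length, for 89.8% of genes, where 99.34% of values above 0 lay within 0.1 of a whole number. Other genes were left out. Count models were not used, since reads were inferred from a log scale. Reads were turned into TPM, and limma 3.58.1 (R 4.3.3, with trend) was fitted to log2(TPM + 1) of the 12263 genes whose TPM averaged 1 or more, with Benjamini-Hochberg adjustment at 0.05. Nothing states cage, litter or batch, so p-values measure the spread between single mice. Scripts were tested on simulated data. The members are named throughout; of other pathway genes, the 3 highest and 3 lowest called effects were named, and other genes named beside them were chosen after their values were seen; for each member, the 3 genes with the highest r. Members and lists were chosen with earlier results of these data known.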

Additional observations from a re-analysis of the deposited data

Results flagged for a closer look

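In groups of 4 mice, a single mouse was set apart by Dixon's ratio of its gap to the group's range on the log2(TPM + 1) scale in 6 of 126 groups, and chance gives about 1 in 20. Depp1 in mouse 4 of DRF ZT4 stood at 26.4 TPM against 4.22, 4.85 and 5.10 TPM (ratio 0.905), and in mouse 4 of NRF ZT12 at 13.5 TPM against 41.7, 35.9 and 34.9 TPM (0.840). Insr in mouse 2 of NRF ZT4 stood at 38.4 TPM against 47.4, 48.5 and 47.5 TPM (0.903), and in mouse 4 of DRF ZT16 at 37.9 TPM against 42.0, 41.6 and 41.5 TPM (0.863). Irs1 in mouse 1 of NRF ZT8 stood at 13.2 TPM with the other 3 mice at 11.8 TPM (0.948), and Foxo1 in mouse 2 of DRF ZT0 at 36.0 TPM against 33.1, 33.4 and 33.2 TPM (0.914).

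The 24-h rhythm differed between NRF and DRF by the limma interaction in Txnip (adjusted p = 2.6e-12), Irs2 (5e-07), Insr (8.9e-07), Depp1 (1.9e-06), Foxo3 (0.0083) and Irs1 (0.015). The response of Irs1 without food differed between the regimens (adjusted p = 0.0018), at -0.06 under NRF and 0.35 under DRF. No explanation of these differences was tested.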

How the results depend on the processing

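Of 1800 values of single members under alternatives, 1690 kept their direction and their side of the threshold, 83 lost a call, 25 gained one and 2 turned direction, and 53 of the first changed sign without a call under either setting. With ZT4 and ZT16 alone, the light effects of Foxo3 (0.41) and Klf15 (0.65) turned positive. The number of members called for light was 4 with ZT4 and ZT16 alone and 3 with ZT8 and ZT20 alone, against 1. Median-of-ratios scaling gave 4 members at ZT0 in place of 1, and 1 (Foxo3) in place of 0 for the 12-h component under NRF. At ZT20 the count of 5 fell to 2 on the deposited values, 3 without a filter on low values and 2 without the libraries over 100 TPM of adipose markers, an alternative chosen after seeing the data. The cause of these changes was not tested.

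Leaving out the mice of each number in turn gave 7 members rhythmic under NRF, 5 to 8 under DRF, 4 to 6 with a difference in rhythm, 5 to 7 with a food effect, 1 to 2 with a light effect, 0 to 1 in daily mean and 2 to 3 with a 12-h component under DRF. At the time points it gave 0 to 2 at ZT0, 4 to 5 at ZT4, 1 to 2 at ZT8, 3 to 4 at ZT12, 2 to 4 at ZT16, 1 to 5 at ZT20 and 1 to 3 at ZT24. Deviations from the group means had a median r of 0.00687 between mice with the same number (351 pairs, lowest -0.786) and 0.0022 between others. No sample pairing was assumed, and whether a number stands for a shared cage or batch was not tested. With a replicate block, without the mouse with no number, 7 members were called for food as before, 4 at ZT4, 4 at ZT20 and 2 at ZT24.

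Median-of-ratios scaling moved the median of all genes by 0.09 at most, at ZT4, where 30.3% of called genes were higher under DRF and 56.6% after it. The share moved from 41.6% to 52.1% at ZT0, from 38.1% to 49.1% at ZT12, from 27.9% to 50.6% at ZT16 and from 23.5% to 50.6% for the daily mean. Counting error limits Depp1 and Irs2 most.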
